A study of Mus musculus with 6 samples.

Results

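The semaphorins, plexins, Slits, Robos, netrins, Unc5 receptors, ephrins and Eph receptors were examined in cultured mouse brain endothelial cells whose genes for Erg and Fli1, a pair of endothelial ETS transcription factors, were targeted for deletion. Members were taken by gene symbol: Sema3 to Sema7 with a letter, the plexins Plxna to Plxnd, Slit1 to Slit3, Robo1 to Robo4, Ntn with a number, Unc5a to Unc5d, and Epha, Ephb, Efna and Efnb with a number. The deposited table held 52636 genes, of which 65 carried such a symbol, and 59 of these had at least 10 counts over the 6 libraries, the limit set for members. The knockout group was 3 libraries of cells with the genotype Erg and Fli1 double knockout, and the control group was 3 libraries of wild-type cells. Both groups came from mouse brain, were grown in endothelial medium and received 4-OHT (4-hydroxytamoxifen) to induce deletion, so that the controls had the drug too. Living cells that stained for CD31 and VE-cadherin but not for CD45 were then sorted, and their polyadenylated RNA was sequenced. The labels name neither the Cre line nor the age or number of the animals.

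Guidance ligands steer growing axons, and blood vessels use the same families for sprouting, repulsion and the sorting of arterial from venous cells. Secreted class 3 semaphorins signal through plexins, mostly with a neuropilin as co-receptor, whereas Sema3e binds Plxnd1 directly and repels endothelial cells. Slits bind Robo receptors such as Robo1 and Robo2. Netrins bind Dcc, neogenin and Unc5 receptors, and ephrins, which stay on the cell surface, bind Eph receptors on the neighbouring cell. Plxnd1, Robo4, Unc5b, Efnb2 and Ephb4 are known for their expression in endothelium, with Efnb2 typical of arteries and Ephb4 of veins.

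The libraries held 17274639 to 19410458 counts, and levels are given as CPM, counts normalised to the library size after TMM scaling. Erg had 70.2, 88.3 and 109 CPM in knockouts 1, 2 and 3, against 656, 223 and 610 CPM in controls 1, 2 and 3. Fli1 had 57.0, 68.5 and 66.7 CPM in knockouts, against 82.9, 64.2 and 92.1 CPM in controls. Erg was lower in each knockout than in each control (log2 fold change -2.48, SE 0.44, edgeR adjusted p = 0.0137), and its call was lost without control 3 or any 1 knockout (highest edgeR adjusted p = 0.0691). The Fli1 levels overlapped and did not pass (log2 fold change -0.32, SE 0.15, edgeR adjusted p = 0.181), but without control 2 Fli1 was lower, at -0.48 (edgeR adjusted p = 0.00346). These counts cover whole genes, with any transcripts that lack deleted exons, so Fli1 levels do not check the deletion. The 10 endothelial markers summed to 2522 to 3272 CPM in knockouts and to 14085, 6354 and 14262 CPM in controls 1, 2 and 3, and all 10 were called lower. They include the genes of the sort proteins, Pecam1 (CD31) at 219 to 376 CPM in knockouts and 1389 to 3736 CPM in controls, and Cdh5 (VE-cadherin) at 1104 to 1406 CPM in knockouts and 2306 to 4957 CPM in controls. Control 2 stood apart from the other controls. The 10 fibroblast markers summed to 1645 to 2865 CPM in knockouts and to 409, 12367 and 1100 CPM in controls 1, 2 and 3, and 9 of them were higher in control 2 than in both other controls. Dcn alone held 1343 to 2110 CPM of that sum in knockouts, while Dpt was at 0 in all 3. The 10 pericyte and smooth muscle markers, all highest in control 2 among the controls, summed to 782 to 1574 CPM in knockouts and to 476, 4296 and 586 CPM in controls. The labels describe 1 sort for all libraries, and whether control 2 was sorted like the others was not tested. Neuron markers other than Tubb3 did not exceed 2.18 CPM in any library, and the 5 leukocyte markers summed to at most 2.29 CPM. Tubb3 was at 52 to 77 CPM in knockouts and at 14, 64 and 21 CPM in controls 1, 2 and 3. The oligodendrocyte marker Mbp was called higher, at 1.4 to 4.0 CPM in knockouts and 0.16 to 0.22 CPM in controls. So was the epithelial marker Krt18, at 6.6 to 9.5 CPM in knockouts and 0.87 to 3.2 CPM in controls. No other oligodendrocyte or epithelial marker of the lists was called. Xist, expressed in female cells, was at 442 to 595 CPM (unscaled) in knockouts 2 and 3 and in control 2. It was at most 5.20 CPM elsewhere, so both groups held male and female cells. Among the controls only control 2 had high Xist, so within that group cell sex and control 2 cannot be told apart. In bulk RNA, fewer cells of a type and less RNA per cell cannot be told apart.

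Of the 65 members 50 were abundant enough to be tested, 1 of them through its controls alone (Ephb1) and 1 through its knockouts alone (Robo2). For Ephb1 and Robo2 the filter thus set the direction of any call, and both are included in the counts that follow. In the knockouts 6 tested members rose and 10 fell (edgeR quasi-likelihood test, adjusted p under 0.05). Calls thus made up 32% of tested members, against 24.7% of the 13901 genes tested. Members called higher were 12%, close to the 13.1% of all genes, and members called lower were 20%, against 11.7%. Without control 2 the counts were 18 higher and 16 lower, which is 36% and 32% of the 50, against 25.5% and 24.8% of all genes, or 68% against 50.3% in either direction. That fit also tested Plxnc1, which was not called, so the member shares are slightly lower when taken over the 51 members tested in it. All 16 calls kept their direction there. The groups did not overlap for 24 tested members (48%), against 46.3% of all genes. The 6 members that rose were Sema3d, Sema3e, Sema5a, Epha4, Plxna1 and Robo2, and the 10 that fell were Sema3a, Sema3g, Sema6a, Sema6b, Plxna4, Plxnd1, Robo4, Ntn4, Efna1 and Ephb1. Among them 9 passed with any single library left out: Sema3e, Sema3g, Sema6b, Epha4, Plxna4, Plxnd1, Ntn4, Efna1 and Ephb1. Ligands and receptors both moved in either direction, with 3 of 27 tested ligands higher and 6 lower, and 3 of 23 tested receptors higher and 4 lower. The median log2 fold change (knockout over control throughout) of the tested members was -0.23, against 0.0030 for all genes tested. Without control 2 it was 0.10 for the same members, against -0.0037 for all genes, so that its sign turned on that library.

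**Figure D1:**
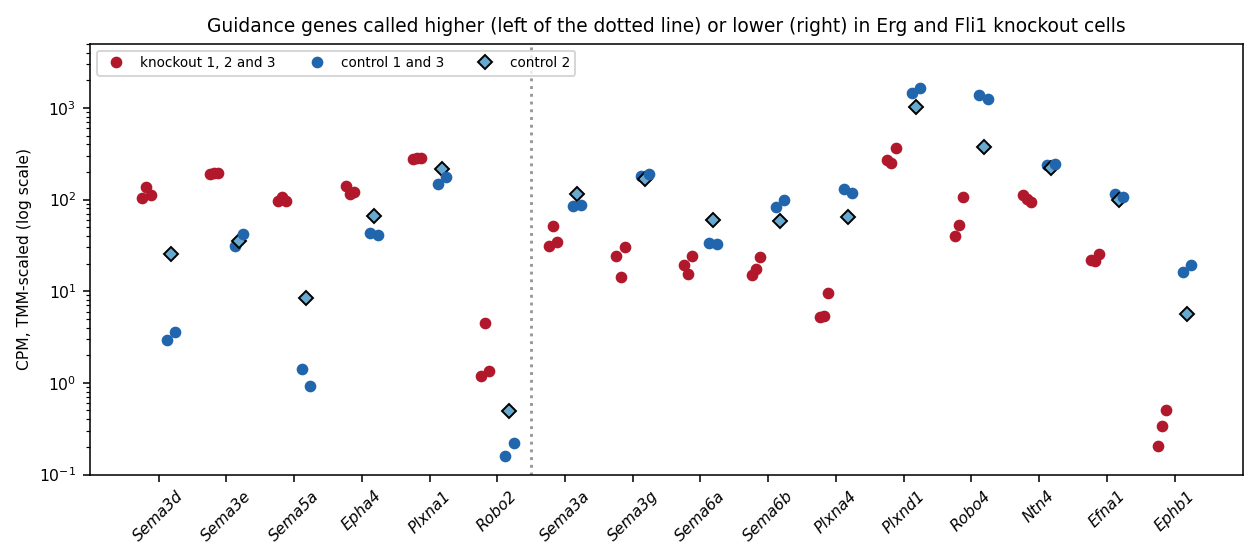
Level of each called guidance gene in each library, in CPM on a log axis, with knockouts left and controls right within each gene. Each knockout point lies outside the range of the 3 controls for all 16 genes, and control 2 (diamond) lies between the knockouts and the other controls for Sema3d, Sema5a, Robo4 and Ephb1, among others.

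The 250 bases before the transcription start given by RefSeq are shown for the promoters of the members with the largest called falls and rises whose mean reached 10 CPM and which had a sequence in the RefSeq table of GRCm38.p6, where 56 of the 65 members had one. ETS factors bind a core of GGAA, and capitals mark each GGAA or, for the opposite strand, TTCC. Robo4 and Sema3g fell, and Sema5a and Sema3d rose. All 4 stretches are given 5′ to 3′ on the plus strand, which is the strand of the genes. GENCODE begins Robo4, Sema3g and Sema5a earlier than RefSeq, inside these stretches.
Robo4 (chr9:37401722-37401971): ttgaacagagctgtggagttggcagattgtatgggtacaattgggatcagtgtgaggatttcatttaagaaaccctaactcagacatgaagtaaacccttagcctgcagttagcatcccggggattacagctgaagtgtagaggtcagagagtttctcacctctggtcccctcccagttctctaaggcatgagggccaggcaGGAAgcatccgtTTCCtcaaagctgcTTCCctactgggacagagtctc
Sema3g (chr14:31217623-31217872): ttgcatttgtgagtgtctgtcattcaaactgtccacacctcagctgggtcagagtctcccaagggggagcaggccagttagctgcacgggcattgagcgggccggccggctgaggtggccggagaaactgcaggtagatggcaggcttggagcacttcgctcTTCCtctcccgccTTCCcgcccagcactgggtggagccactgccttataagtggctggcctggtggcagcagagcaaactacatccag
Sema5a (chr15:32244563-32244812): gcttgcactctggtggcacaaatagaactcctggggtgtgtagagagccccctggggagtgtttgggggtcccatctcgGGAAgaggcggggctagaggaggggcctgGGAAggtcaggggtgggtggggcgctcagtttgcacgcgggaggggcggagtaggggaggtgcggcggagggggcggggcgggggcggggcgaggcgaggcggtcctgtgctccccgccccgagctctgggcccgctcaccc
Sema3d (chr5:12382916-12383165): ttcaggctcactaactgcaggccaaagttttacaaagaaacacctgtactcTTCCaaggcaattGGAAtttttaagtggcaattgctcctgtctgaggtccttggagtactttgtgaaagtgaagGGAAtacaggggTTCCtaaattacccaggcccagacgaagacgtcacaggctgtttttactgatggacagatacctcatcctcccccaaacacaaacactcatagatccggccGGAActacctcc

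The Robo4 stretch holds 3 such cores, the Sema3g and Sema5a stretches 2 each and the Sema3d stretch 5, and 93.4% of all 32851 stretches of this length hold at least 1. Longer ETS motifs, CAGGAAG or CCGGAAG on either strand, were found before 17.9% of the 56 members and 19% of all 27025 genes in the table. CAGGAAG begins 50 bases before the RefSeq start of Robo4 on the plus strand, which is after the start that GENCODE gives, and Sema3e, which rose, was the other called member with a match. Of the 8 members called lower with a sequence 1 had a match, and of the 5 called higher 1 had a match.

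Class 3 semaphorins, the secreted repulsive ligands, changed in both directions, and the most abundant members differed between the groups. Sema3e had 188, 196 and 197 CPM in knockouts, against 31.4, 35.2 and 41.7 CPM in controls. The groups were far apart and each was tight, with the log2 fold change at 2.42 (SE 0.11, edgeR adjusted p = 5.063e-04). Sema3d had 103, 136 and 112 CPM in knockouts, against 2.95, 25.2 and 3.62 CPM in controls. Every knockout was above every control, and control 2 lay between the knockouts and the other controls, with the log2 fold change at 3.46 (SE 0.89, edgeR adjusted p = 0.0399). Without control 2 it was 5.12, and without any other single library the call was lost (highest edgeR adjusted p = 0.121). Sema3c had 336, 495 and 376 CPM in knockouts, against 0.738, 37.7 and 1.97 CPM in controls. The groups did not overlap, but Sema3c did not pass with all 6 libraries (log2 fold change 4.90, SE 1.47, edgeR adjusted p = 0.0614). Without control 2 it passed, at 8.18 (SE 0.34, edgeR adjusted p = 6.977e-06). With all libraries it passed in DESeq2, in limma voom and with cell sex as a covariate, which sets control 2 apart from the other controls. The fibroblast marker sum was 1645 to 2865 CPM in knockouts and 12367 CPM in control 2, most of it from Col1a1, Col1a2 and Col3a1. Of that list Dcn and Pdgfra were higher in each knockout than in control 2. Dcn was at 1343 to 2110 CPM in knockouts, against 317 CPM, and Pdgfra at 13.8 to 16.4 CPM, against 6.15 CPM. Col1a1, Col1a2, Col3a1, Postn, Fbln1 and Mfap5 were lower in each knockout than in control 2. Lum lay on either side of control 2, and Dpt was at 0 in the knockouts. The part of other cells in the Sema3c and Sema3d levels was not tested.

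Sema3g and Sema3a moved the other way. Sema3g, which marks arterial endothelium, had 24.3, 14.2 and 30.2 CPM in knockouts, against 182, 167 and 188 CPM in controls. The knockouts held 12.8% of the control mean, with no overlap and with control 2 close to the other controls (log2 fold change -2.97, SE 0.28, edgeR adjusted p = 0.00265). Sema3a, the classical growth cone collapsing ligand, had 31.5, 51.7 and 34.8 CPM in knockouts, against 84.2, 115 and 86.8 CPM in controls. Each knockout lay below each control (log2 fold change -1.28, SE 0.23, edgeR adjusted p = 0.0137), and the call was lost without knockout 1 or without knockout 3 (highest edgeR adjusted p = 0.0632). Sema3f had 138 to 168 CPM in knockouts and 132 to 262 CPM in controls and did not pass with all libraries. It was lower without control 2, at a log2 fold change of -0.65 (edgeR adjusted p = 0.00227). Sema3b stayed at or below 2.34 CPM in all libraries. Levels per kilobase of exon compare different genes only roughly, because all annotated exons can exceed the transcript expressed. By this measure Sema3c made up 43.4 ± 5.4% of the class in knockouts and 2.25 ± 3.6% in controls (SD, n = 3 each). Sema3g made up 3.97 ± 1.5% in knockouts and 42.6 ± 2.2% in controls, and Sema3f 23.7 ± 4.2% in knockouts and 41.8 ± 9.8% in controls. On GRCm38 4 of the 7 genes lie within a stretch of chromosome 5, in the order Sema3d (12383385 to 12588948), Sema3a (13125414 to 13602565), Sema3e (14025276 to 14256689) and Sema3c (17574281 to 17730268), all on the plus strand. Sema3a, which fell, thus lies between Sema3d and Sema3e, which rose.

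Among the membrane-bound semaphorins Sema5a rose, and Sema6a and Sema6b fell. Sema5a, a thrombospondin-repeat semaphorin, had 96.5, 108 and 97.0 CPM in knockouts, against 1.42, 8.39 and 0.932 CPM in controls. The 3 knockouts were alike, and control 2 was the highest control (log2 fold change 4.81, SE 0.86, edgeR adjusted p = 0.0138). Without control 2 the log2 fold change was 6.37, and without any 1 knockout the adjusted p reached 0.0575 (edgeR). Sema6b, a ligand of class A plexins, had 15.1, 17.5 and 23.8 CPM in knockouts, against 82.6, 58.8 and 100.1 CPM in controls. There was no overlap between the groups, with the log2 fold change at -2.10 (SE 0.26, edgeR adjusted p = 0.00519). Sema6a, also a class A plexin ligand, had 19.5, 15.3 and 24.0 CPM in knockouts, against 33.6, 59.8 and 32.7 CPM in controls. It was lower in every knockout (log2 fold change -1.10, SE 0.30, edgeR adjusted p = 0.0449), but the call was lost without any single library other than control 2 (highest edgeR adjusted p = 0.147). It was also lost when only library size was used for scaling.

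The other tested membrane semaphorins did not pass in edgeR with all libraries and no covariate. Sema7a, a GPI-anchored semaphorin that binds integrins and plexin C1, had 48.8, 56.9 and 60.3 CPM in knockouts, against 76.1, 252 and 123 CPM in controls. It was below the controls in each knockout, with control 2 far above the rest (log2 fold change -1.44, SE 0.44, edgeR adjusted p = 0.0622), and without control 2 it passed at -0.88 (edgeR adjusted p = 0.00783). Sema7a was also called lower with all libraries in DESeq2 and with cell sex as a covariate. Sema4c, the class 4 member with the highest level, had 46.0, 37.2 and 42.4 CPM in knockouts, against 30.8, 47.3 and 35.4 CPM in controls, and the groups overlapped. An opposite-strand gene covers 7.27% of its exons, and strand use in the counting is not given in the sources used here. Sema4b had 24.5 to 27.3 CPM in knockouts and 8.66 to 22.5 CPM in controls, and it passed without control 2 (log2 fold change 1.53, edgeR adjusted p = 3.456e-05). Sema6d had 95.7 to 101 CPM in knockouts and 99.5, 189 and 104 CPM in controls, so that control 2 alone stood apart. Sema6c had 2.12 to 2.51 CPM in knockouts and 0.632, 5.5 and 0.822 CPM in controls, and it passed without control 2 at 1.65 (edgeR adjusted p = 0.00234). Sema4g had 2.95 to 5.09 CPM in knockouts and 2.84, 14.9 and 3.01 CPM in controls.

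Among the plexins, the semaphorin receptors, Plxnd1 and Plxna4 fell and Plxna1 rose. Plxnd1, the Sema3e receptor, had 269, 254 and 366 CPM in knockouts, against 1473, 1029 and 1643 CPM in controls. It fell to 21.4% of the control mean with a wide gap between the groups (log2 fold change -2.22, SE 0.24, edgeR adjusted p = 0.00351). Plxna4, a class A plexin that works with neuropilins, had 5.24, 5.41 and 9.47 CPM in knockouts, against 132, 65.3 and 117 CPM in controls. All knockouts were far below all controls (log2 fold change -3.96, SE 0.39, edgeR adjusted p = 0.00281). Plxna1 had 279, 282 and 287 CPM in knockouts, against 148, 218 and 177 CPM in controls. The knockouts were nearly equal and lay above each control (log2 fold change 0.64, SE 0.14, edgeR adjusted p = 0.0265), but the call was lost without control 3 or any 1 knockout (highest edgeR adjusted p = 0.0924). An opposite-strand gene covers 10.7% of the Plxna1 exons, and another covers 0.78% of those of Plxna4, so these counts may include reads of those genes.

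Plxnb2 and Plxna2 were abundant plexins that passed in edgeR without control 2 but not with it. Plxnb2, a receptor for class 4 semaphorins, had 778, 799 and 768 CPM in knockouts, against 241, 606 and 267 CPM in controls. Its groups did not overlap, though control 2 came near the knockouts (log2 fold change 1.07, SE 0.37, edgeR adjusted p = 0.0873), and without control 2 it passed at 1.59 (edgeR adjusted p = 5.667e-06). DESeq2 called it higher with all libraries. Plxna2 had 350, 315 and 398 CPM in knockouts, against 686, 304 and 790 CPM in controls. Control 2 was below all knockouts, while the other controls were above them, and without control 2 Plxna2 passed at -1.09 (edgeR adjusted p = 2.157e-04). Plxnb1 had 24.6 to 28.9 CPM in knockouts and 15, 28.6 and 14.8 CPM in controls and passed without control 2 at 0.77 (edgeR adjusted p = 8.844e-04), while Plxna3 had 6.78 to 10.4 CPM in knockouts and 8.53, 26.0 and 7.07 CPM in controls and did not pass. Per kilobase of exon, Plxnd1 held 20.4 ± 3.2% of plexin transcripts in knockouts and 61.9 ± 8.8% in controls (SD, n = 3 each), whereas Plxnb2 held 51.2 ± 3.2% in knockouts and 16.5 ± 10.7% in controls. Plxnb2 was thus the leading plexin in each knockout, and Plxnd1 in each control. Sema3e stood at 20.3, 21.1 and 21.2 CPM per kilobase in knockouts, against 3.38, 3.79 and 4.49 in controls, and its receptor Plxnd1 at 36.9, 34.7 and 50.2 in knockouts, against 202, 141 and 225 in controls. The ratio of ligand to receptor transcripts per kilobase was 0.423 to 0.607 in knockouts and 0.0167 to 0.0269 in controls. This was 1 of 5 pairs computed, all chosen after their values were seen. The ratio of Slit2 to Robo4, a pair whose binding was not tested, was also higher. It was 0.531 to 1.94 in knockouts and 0.00257 to 0.143 in controls. The ratios of Efna1 to Epha2 and of Ntn4 to Unc5b were lower, and binding was not tested for any pair here. That of Efna1 was 0.255 to 0.303 in knockouts and 0.978 to 2.48 in controls. That of Ntn4 was 0.587 to 0.727 in knockouts and 0.924 to 1.92 in controls. The ratio of Efnb2 to Ephb4 overlapped, at 1.43 to 1.88 in knockouts and 1.16 to 1.51 in controls.

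**Figure D2:**
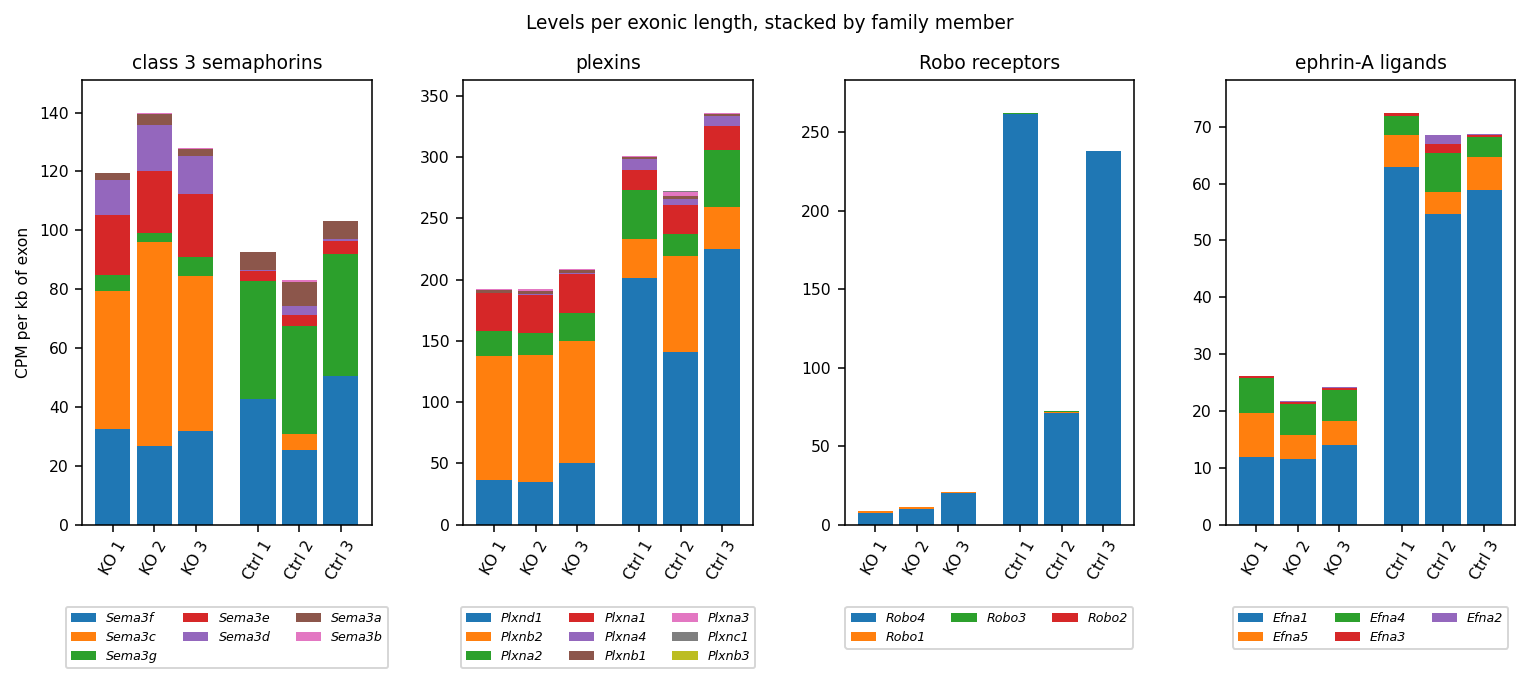
Levels in CPM per kilobase of exon in each library, stacked by member, for class 3 semaphorins, plexins, Robo receptors and ephrin-A ligands, with knockouts (KO) left and controls (Ctrl) right. Sema3c and Plxnb2 take the largest shares in the knockouts, where Sema3g and Plxnd1 take 3.97% and 20.4% against 42.6% and 61.9% in controls.

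Robo4, the Robo receptor of endothelial cells, fell, while Robo2 rose at a low level. Robo4 had 40.4, 53.2 and 106 CPM in knockouts, against 1387, 376 and 1260 CPM in controls. The knockouts kept 6.59% of the control mean, and control 2, the lowest control, was still above each of them (log2 fold change -3.92, SE 0.65, edgeR adjusted p = 0.0110). Without knockout 1, or without knockout 2, the call was lost (highest edgeR adjusted p = 0.0622). Robo2, a neuronal Slit receptor, had 1.18, 4.52 and 1.34 CPM in knockouts, against 0.158, 0.490 and 0.219 CPM in controls. Knockout 2 was far above the other knockouts (log2 fold change 2.99, SE 0.75, edgeR adjusted p = 0.0361). Without that library the log2 fold change was 2.10, and the call was lost without any single library other than control 2 (highest edgeR adjusted p = 0.119). Robo1 had 19.9, 15.5 and 15.4 CPM in knockouts, against 2.00, 18.1 and 2.47 CPM in controls. Control 2 lay among the knockouts, and without it Robo1 passed at 2.89 (edgeR adjusted p = 3.292e-05), against 1.17 and an adjusted p of 0.368 (edgeR) with all libraries. Robo3 lies beside Robo4 on chromosome 9, where Robo4 spans 37401897 to 37415115 on the plus strand and Robo3 spans 37415669 to 37433246 on the minus strand. It had 0.446 to 0.837 CPM in knockouts and 2.06, 0.544 and 1.70 CPM in controls, and it passed without control 2 at -1.48 (edgeR adjusted p = 0.00999). Robo4 still made up 89.3 ± 5.2% of Robo transcripts per kilobase in knockouts, against 99.3 ± 0.87% in controls (SD, n = 3 each).

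Of the Slit ligands neither tested gene passed with all 6 libraries, and both were high in control 2. Slit2 had 376, 297 and 269 CPM in knockouts, against 17.1, 259 and 25.9 CPM in controls. Each knockout was above each control, though control 2 came close to knockout 3 (log2 fold change 1.64, SE 1.05, edgeR adjusted p = 0.300). Without control 2 Slit2 passed at 3.84 (SE 0.22, edgeR adjusted p = 2.210e-05). Slit3 had 5.6, 5.52 and 1.84 CPM in knockouts, against 4.48, 249 and 10.3 CPM in controls. Control 2 alone was high, and the fitted log2 fold change was -4.34 with that library and -0.80 without it (edgeR adjusted p = 0.114 and 0.224). Slit2 was thus high in control 2 and in the knockouts, and Slit3 in control 2 alone. The fibroblast markers were at 12367 CPM in control 2, and their part in the Slit levels was not tested.

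Netrin 4 fell and the Unc5 receptors did not pass with all libraries. Ntn4, a laminin-related netrin of vascular basement membranes, had 112, 101 and 95.1 CPM in knockouts, against 239, 224 and 242 CPM in controls. The 2 groups were each tight and well apart, with control 2 like the other controls (log2 fold change -1.19, SE 0.082, edgeR adjusted p = 0.00123). Ntn1, the classical floor plate netrin, had 11.3 to 16.3 CPM in knockouts and 10.4 to 14 CPM in controls, an overlap. Unc5b, an endothelial netrin and Robo4 binding receptor, had 294, 287 and 219 CPM in knockouts, against 208, 405 and 231 CPM in controls. Its groups overlapped, with the highest level in control 2 (log2 fold change -0.08, SE 0.28, edgeR adjusted p = 0.869). Unc5a had 4.30 to 5.40 CPM in knockouts and 3.48 to 5.90 CPM in controls. Unc5c had 3.49, 4.85 and 3.29 CPM in knockouts, against 1.42, 17.3 and 1.86 CPM in controls, so that its fitted direction turned on control 2. The log2 fold change was -0.82 with all libraries (edgeR adjusted p = 0.581) and 1.20 without control 2 (edgeR adjusted p = 0.00860).

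Ephrin-A1 fell, while the arterial ephrin-B2 and the venous receptor Ephb4 did not pass the test with all libraries. Efna1, a TNF-inducible ligand of EphA receptors, had 21.9, 21.3 and 25.6 CPM in knockouts, against 115, 100.1 and 108 CPM in controls. The gap between the groups was several times the spread within them (log2 fold change -2.23, SE 0.10, edgeR adjusted p = 4.574e-04). Efna1 made up 52.3 ± 6.0% of ephrin-A transcripts per kilobase in knockouts and 84.1 ± 3.7% in controls (SD, n = 3 each). Its neighbours on chromosome 3, Efna3 and Efna4, did not pass in edgeR with all libraries, although Efna3 was called lower in DESeq2 and with cell sex as a covariate. Efna4 had 8.65 to 9.97 CPM in knockouts and 5.32, 11.1 and 5.59 CPM in controls, and it passed without control 2 at 0.71 (edgeR adjusted p = 0.00319). Efna3 had 0.514 to 0.725 CPM in knockouts and 1.05, 3.81 and 1.10 CPM in controls. Opposite-strand genes cover 14.1% of the Efna3 exons and 10.5% of those of Efna4. Efna5 had 30.8, 17 and 16.9 CPM in knockouts, against 23.2, 15 and 23.4 CPM in controls, with overlap.

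Efnb2 had 386, 317 and 308 CPM in knockouts, against 262, 349 and 254 CPM in controls. The groups overlapped through control 2 (log2 fold change 0.23, SE 0.16, edgeR adjusted p = 0.343), and without it Efnb2 passed at 0.35 (edgeR adjusted p = 0.0257). Ephb4 had 139, 151 and 145 CPM in knockouts, against 153, 156 and 146 CPM in controls. All 6 libraries were within a narrow range, with the log2 fold change at -0.06 (SE 0.059, edgeR adjusted p = 0.474). Efnb1 had 16.4 to 17.9 CPM in knockouts and 12.3 to 26.7 CPM in controls, and Efnb3 stayed at or below 0.877 CPM in every library.

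Among the Eph receptors Ephb1 fell and Epha4 rose. Ephb1, an ephrin-B receptor, had 0.206, 0.335 and 0.501 CPM in knockouts, against 16.4, 5.66 and 19.1 CPM in controls. The knockouts kept 2.53% of the control mean and no library overlapped (log2 fold change -5.29, SE 0.62, edgeR adjusted p = 0.00447). These knockout levels rest on 4, 6 and 9 counts, and an opposite-strand gene covers 2.17% of the Ephb1 exons. Epha4, which binds ephrins of both classes, had 142, 115 and 120 CPM in knockouts, against 42.8, 66.5 and 40.9 CPM in controls. Each knockout was above each control (log2 fold change 1.33, SE 0.21, edgeR adjusted p = 0.00971). Epha2, the leading EphA receptor per kilobase in both groups, had 214, 213 and 216 CPM in knockouts, against 278, 103 and 281 CPM in controls. The knockouts lay between control 2 and the other controls, and without control 2 Epha2 passed at -0.42 (edgeR adjusted p = 3.384e-04). Epha7 had 18.8, 21.2 and 16.3 CPM in knockouts, against 59.6, 17 and 53.2 CPM in controls. It was also low in control 2, and without that library it passed at -1.62 (edgeR adjusted p = 4.656e-05). Epha1, Ephb3 and Ephb6 had 3.24 to 4.68 CPM in knockouts, 0.790 to 3.01 CPM in controls 1 and 3 and 6.04 to 12.9 CPM in control 2. Without control 2 Epha1 and Ephb3 passed, at 1.81 and 2.11 (edgeR adjusted p = 0.00182 and 3.144e-04). Ephb2 stayed at or below 1.21 CPM in all libraries.

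**Figure D3:**
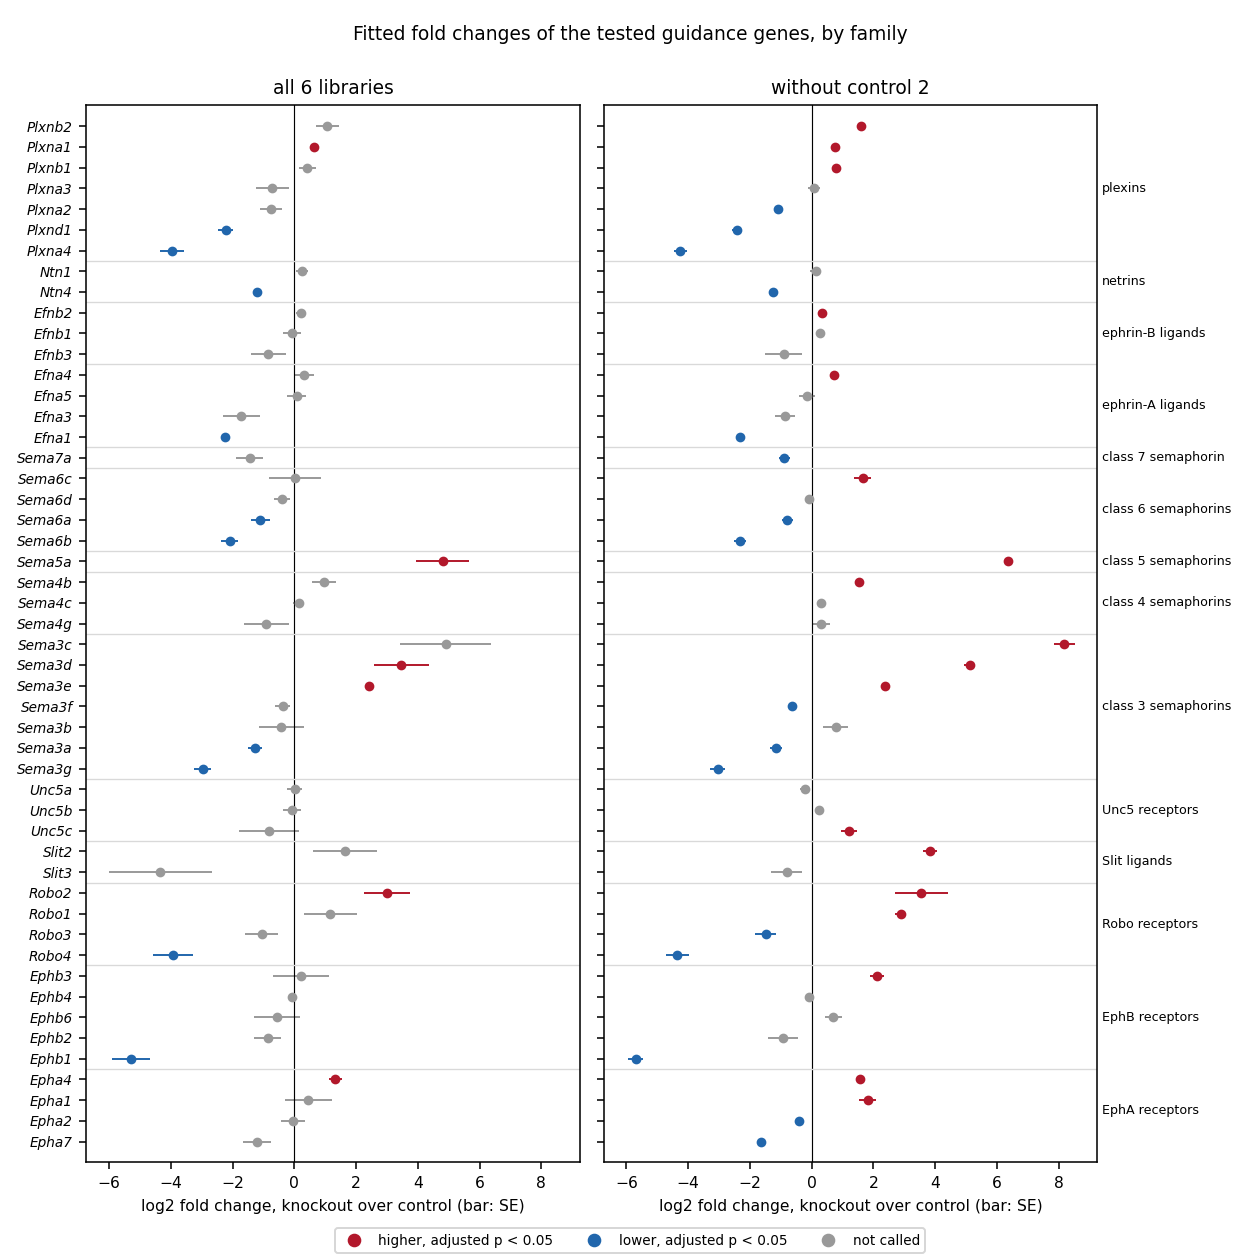
Fitted log2 fold changes of the 50 tested guidance genes, knockout over control, by family, with bars for the SE, from all 6 libraries (left panel) and without control 2 (right panel). With all libraries 6 genes are called higher and 10 lower, and without control 2 the counts are 18 and 16.

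Of the 15 members not tested with all 6 libraries, 9 had 10 or more counts: Epha3, Epha5, Slit1, Sema4a, Sema4d, Sema4f, Sema5b, Efna2 and Plxnc1, at 16 to 97 counts over the 6 libraries. Most of the Efna2 level lay in control 2, at 3.38 CPM, against 0.308 to 0.724 CPM in knockouts and 0.0527 and 0.438 CPM in controls 1 and 3. Sema4f and Sema5b were also highest in control 2, at 1.47 and 0.762 CPM, and Sema5b was at 0 in the 3 knockouts. The other 6 members, Epha6, Epha8, Unc5d, Plxnb3, Epha10 and Ntn5, had under 10 counts, and Epha10 and Ntn5 had 0.

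The level in control 2 was over 2-fold above both other controls for 19 of the 50 tested members (38%), against 10.7% of all genes tested. This describes 1 library, and the part of fibroblasts or mural cells in it was not tested.

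Co-receptors and other surface partners of these families were examined as a list of 32 genes, of which 21 could be tested. In the knockouts 3 rose, which is 14.3% against 13.1% of all genes called higher (edgeR). Of the list 0 fell, where 11.7% of all genes were called lower. Without control 2, 11 rose and 0 fell, where 25.5% of all genes were called higher and 24.8% lower. With all libraries DESeq2 called 5 higher and 1 lower, where 2088 of 13767 genes were higher and 2287 lower. With limma voom 0 were lower, where 1494 of 13901 genes were. At an unadjusted p under 0.05, 5 were higher and 1 lower. The share of all genes at that limit is not given here, so these counts cannot be set against it. Nrp2, a neuropilin that serves class 3 semaphorins and VEGF-C, had 1142, 1126 and 1248 CPM in knockouts, against 439, 230 and 440 CPM in controls. The knockouts were all above the controls, with control 2 the lowest (log2 fold change 1.66, SE 0.27, edgeR adjusted p = 0.00982). Nrp1, its paralogue for Sema3a and VEGF-A, had 462, 502 and 489 CPM in knockouts, against 90.0, 262 and 108 CPM in controls. It was higher in every knockout (log2 fold change 1.66, SE 0.42, edgeR adjusted p = 0.0381), but the call was lost without any single library other than control 2 (highest edgeR adjusted p = 0.118). The third gene, named because the count was small, was Flrt3, an Unc5-binding adhesion protein, with 5.70 ± 0.28 CPM in knockouts and 3.01 ± 0.76 CPM in controls (SD, n = 3 each). It rose by 0.92 on the log2 scale (SE 0.21, edgeR adjusted p = 0.0296), and the call was lost without control 1 or any 1 knockout (highest edgeR adjusted p = 0.105). The netrin receptor gene Dcc averaged 0.0548 CPM over the 6 libraries and was not tested.

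Intracellular effectors that link these receptors to the cytoskeleton were examined as a list of 65 genes, of which 62 were tested. Of these, 18 fell and 6 rose, together 38.7% of the tested genes, against 24.7% of all genes. Without control 2 the counts were 28 lower and 16 higher, where 24.8% of all genes were called lower and 25.5% higher. Sh2d3c, an adaptor of Eph receptors, had 9.66, 11.2 and 22.0 CPM in knockouts, against 178, 122 and 178 CPM in controls. The groups were far apart (log2 fold change -3.48, SE 0.38, edgeR adjusted p = 0.00357). Ablim3, an actin-binding protein, had 4.37, 4.18 and 7.02 CPM in knockouts, against 59.3, 19.3 and 60 CPM in controls. All knockouts were lower (log2 fold change -3.15, SE 0.51, edgeR adjusted p = 0.010), and the call was lost without knockout 1 or without knockout 2 (highest edgeR adjusted p = 0.0572). Crmp1, a cytosolic mediator of Sema3a signalling, had 17.1, 18.3 and 20.9 CPM in knockouts, against 70.2, 67 and 67.1 CPM in controls. Each group was tight (log2 fold change -1.86, SE 0.095, edgeR adjusted p = 6.232e-04).

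The members whose calls held with any 1 library left out lie on GRCm38 as follows. Sema3e (ENSMUSG00000063531) is on the plus strand of chromosome 5 at the position given above. Sema3g (ENSMUSG00000021904) lies on chromosome 14, 31217860 to 31230352, and Sema6b (ENSMUSG00000001227) on chromosome 17, 56123085 to 56140343. Plxnd1 (ENSMUSG00000030123) and Plxna4 (ENSMUSG00000029765) both lie on the minus strand of chromosome 6, at 115954811 to 115995005 and 32144268 to 32588192. Ntn4 (ENSMUSG00000020019) lies on chromosome 10, 93640681 to 93747207, and Efna1 (ENSMUSG00000027954) on chromosome 3, 89271733 to 89281142. Ephb1 (ENSMUSG00000032537) lies on chromosome 9, 101922128 to 102354693, and Epha4 (ENSMUSG00000026235) on chromosome 1, 77367185 to 77515088.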

How the data were processed

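For the 6 libraries the authors deposited raw counts per Ensembl gene, which entered the test unchanged. The submitters' processing notes name STAR 2.7.6a, FastQC 0.11.5 and the build GRCm38. How reads were counted, with which strand setting and annotation, is not given in the sources used here. Symbols, exons and positions came from GENCODE M21, which held 52489 of the 52636 IDs. Groups and replicate numbers came from the sample titles. The labels do not say which libraries came from separate cultures or animals. By Xist each group held libraries of both sexes, so the libraries of a group did not all share an animal. Whether libraries of like sex did is not known. The p-values reflect only how far these libraries spread, which may be technical in part.

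Counts were tested in R 4.3.3 with edgeR 4.0.16 (filterByExpr by group, TMM scaling, glmQLFit and glmQLFTest, two-sided, no covariate), with Benjamini-Hochberg adjustment over all 13901 genes tested. The SE is the log2 fold change divided by the square root of F. Calls required an adjusted p under 0.05. The test was checked on simulated counts. Values per kilobase divide CPM by the union of annotated exons.

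Members and lists were chosen with earlier results of these data known. Values per library are given for called members whose mean reached 5 CPM and whose absolute log2 fold change reached 1, or the most abundant member of a family without one. Values per library of further members were added after they were seen, mostly where control 2 stood apart. From each of the partner and effector lists up to 4 called genes whose mean reached 5 CPM were named by size of change, and 1 effector gene is not reported here. Alternatives were DESeq2 1.42.0, limma voom (limma 3.58.1), RLE scaling, scaling by library size only, 3 other filters, the replicate number as a block, cell sex as a covariate, each library left out and an adjusted p under 0.01.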

Additional observations from a re-analysis of the deposited data

How the results depend on the processing

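With other scalings, filters and tools, 6 to 8 members were higher and 9 to 13 lower, against 6 and 10 as reported. No called member changed direction in any fit. Sema6a lost its call with the replicate block (as did Plxna1), with library size only, with a limit of 10 counts over 6 libraries and with limma voom, which also lost Robo2. Of all genes called in either direction, 52.8% were higher with TMM and 66.4% with library size only. An adjusted p under 0.01 left 2 members higher and 7 lower, and the counts of all genes higher and all genes lower were then 732 and 524. It left 1 partner gene higher and 0 lower, and 5 effector genes higher and 8 lower. DESeq2 also called Efna3, Epha7, Plxnb2, Sema3c and Sema7a among the members, and limma voom called Sema3c. The fit with cell sex also called Efna3, Sema3c and Sema7a (7 higher and 12 lower in all). Among the controls that covariate sets control 2 apart from the others. DESeq2 called 5 partner genes higher and 1 lower. Same-numbered libraries had correlations of deviations from the group means of -0.188, 0.186 and 0.319, and not every library correlated best with its own number. With 3 libraries per group and control 2 apart from the other controls, these correlations cannot decide whether the replicate numbers pair the libraries. With the replicate block 5 members were higher and 9 lower, and 1038 genes were higher and 806 lower over all genes. Leaving out 1 library gave 2 to 18 members higher and 7 to 16 lower, and 803 to 3617 genes higher and 548 to 3511 lower over all genes. It gave 1 to 11 partner genes higher and 0 lower, and 5 to 16 effector genes higher and 8 to 28 lower. The highest of these counts came without control 2. The log2 fold change of Unc5c, -0.82 with all libraries, was -1.30 to 1.20 over these fits and passed only without control 2, with the sign changed. With limma voom and with the replicate block it was also above 0, at 0.096 and 0.075, and did not pass. Genes at a few counts per library, such as Ephb1 in the knockouts, are limited by depth.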
